A study of Mus musculus with 9 samples.

Results

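Of the 35013 gene symbols in both deposited tables, 9 were taken as endocrine lineage transcription factors: Neurog3, Neurod1, Insm1, Pax4, Nkx2-2, Pax6, Isl1, Rfx6 and Etv1. They were picked by symbol, from the progenitor factor to factors of later endocrine cells, and each had a row in both tables. The cells came from the small intestinal epithelium of 4- to 6-week-old NFKO mice (Neurog3Cre-FoxO1 f/f; Rosa26tdtomato), in which Cre driven by Neurog3 deletes FoxO1 and switches on the red reporter tdTomato. Cells were stained for Epcam and CD24 and sorted into CD24negTomato+, CD24+Tomato+ and Tomatoneg populations, with 3 poly-A RNA-seq libraries of each. All 9 libraries therefore carried the floxed FoxO1 alleles and the Neurog3 Cre, and no library of a mouse with intact FoxO1 entered the comparisons. Tomato marks every cell that descends from a Neurog3-expressing cell, whatever it later became.

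Enteroendocrine cells (EEC) are the hormone-secreting cells of the gut epithelium. Neurog3, a basic helix-loop-helix factor, is switched on briefly in secretory progenitors and is required for the EEC lineage. It is followed by Neurod1, Insm1 and Pax4, then by homeodomain and winged-helix factors that stay on in hormone-producing cells, and many of the same genes act in the pancreatic islet.

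In the mouse GRCm38 annotation the 9 genes lay on 5 chromosomes, with 4 of them on chromosome 2. RefSeq promoter windows of the GRCm38.p6 assembly, from 250 bases before to 50 bases after a transcription start, were matched for 7 of the 9 genes, with 9 windows in all. Insm1 and Pax4 had no entry. Stretches of 3 of these windows outside annotated exons are shown because these genes stand for the start of the series and for later steps: Neurog3 is the progenitor factor, Neurod1 its bHLH successor, and Nkx2-2 a homeodomain factor. They are written 5′ to 3′ on the strand of the gene, and capitals mark the E-box CANNTG, the hexamer that bHLH factors can bind. The Neurog3 stretch is chr10:62132840-62133089 on the plus strand, directly before the gene. The Neurod1 stretch is chr2:79456786-79456886 on the minus strand, next to an exon of a Cerkl transcript. The annotated Neurod1 gene itself ends at 79456751, short of that stretch. The Nkx2-2 stretch is chr2:147186456-147186652 on the minus strand, inside an intron of longer Nkx2-2 transcripts.
Neurog3: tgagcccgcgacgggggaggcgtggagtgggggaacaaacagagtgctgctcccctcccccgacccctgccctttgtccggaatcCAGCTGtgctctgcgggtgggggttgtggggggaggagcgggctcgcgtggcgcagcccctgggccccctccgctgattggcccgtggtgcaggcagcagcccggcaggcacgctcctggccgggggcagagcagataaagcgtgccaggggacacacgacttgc
Neurod1: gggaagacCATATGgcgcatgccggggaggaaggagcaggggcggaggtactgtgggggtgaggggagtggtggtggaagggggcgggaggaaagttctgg
Nkx2-2: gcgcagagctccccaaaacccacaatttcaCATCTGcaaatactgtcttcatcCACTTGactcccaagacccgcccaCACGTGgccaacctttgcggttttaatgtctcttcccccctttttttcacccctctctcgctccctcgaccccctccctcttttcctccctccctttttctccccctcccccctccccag
The Nkx2-2 stretch held 3 E-boxes and the other two 1 each. CANNTG was present in 7 of the 9 windows, and in 72.3% of 32851 RefSeq promoter windows of the same length, so its presence does not set these genes apart. CAGATG, which overlaps the E-box and was searched on both strands, occurred in a window of Nkx2-2 (there as CATCTG) and of Etv1, against 17.2% of all windows. The forkhead core TGTTTAC, also searched on both strands, occurred in 0 of the 9 windows and in 3.65% of all windows. These are matches of letters only.

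The tables held normalized counts, one table with CD24negTomato+ and Tomatoneg and the other with CD24+Tomato+ and the same 3 Tomatoneg libraries. From the smallest steps of the values the libraries held an estimated 29953097 to 37138914 reads for CD24negTomato+, between 27723742 and 39240059 for CD24+Tomato+ and between 19158348 and 24373149 for Tomatoneg, and 3 reads corresponded to 2.10 to 4.29 normalized counts. Foxo1, the deleted gene, averaged 371 ± 96.6 (SD, n = 3) in CD24negTomato+ and 546 ± 138 in Tomatoneg, and 238 ± 70.7 in CD24+Tomato+ and 574 ± 157 in Tomatoneg of the other table (limma adjusted p = 0.427 and 0.0579, or 0.207 and 0.0219 with replicate number as a block). These whole-gene values do not resolve the deleted exons. Cd24a, which encodes the sorted antigen, had a log2 fold change of -1.37 in CD24negTomato+ (limma adjusted p = 0.115, or 0.0133 with the block) and rose by 2.78 in CD24+Tomato+ (adjusted p = 0.00300). Epcam, the epithelial antigen of the sort, was at 27920 to 28864 in CD24negTomato+ and 23036 to 34967 in Tomatoneg. In the other table it was at 20915 to 22504 (mean 21469) in CD24+Tomato+ and 24175 to 37673 in Tomatoneg. The log2 fold change there was -0.45 (limma adjusted p = 0.343). Chga, the general EEC granule gene, rose by 3.80 in CD24negTomato+ and by 5.01 in CD24+Tomato+ on the log2 scale (limma adjusted p = 0.00602 and 0.00104).

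Neither Tomato+ population was made up of EEC alone. The summed normalized count of 12 EEC markers ranged from 121083 to 241666 in CD24negTomato+ libraries and from 352148 to 544996 in CD24+Tomato+ libraries, with 6478 to 14659 in Tomatoneg. Of the 12 EEC markers, 12 passed limma as higher in CD24+Tomato+ and 9 in CD24negTomato+. With the replicate block 10 were higher and 2 were lower in CD24negTomato+, so the sum hides markers that went the other way. For goblet markers (8 genes) the sum lay between 2106810 and 2808710 in CD24negTomato+, between 995578 and 1256950 in CD24+Tomato+ and between 133197 and 217560 in Tomatoneg, and 8 of 8 passed the test as higher in each comparison. Paneth markers (7 genes) summed to 475426 to 1970570 in CD24+Tomato+ and 19262 to 48408 in CD24negTomato+, with 38605 to 157811 and 35692 to 149729 in Tomatoneg of the respective tables. For 7 neural and interstitial markers the sum lay between 1280 and 1964 in CD24negTomato+, between 2706 and 4982 in CD24+Tomato+ and between 310 and 848 in Tomatoneg. For islet beta cell markers (7 genes) it lay between 493 and 9170 (median 1065) in CD24negTomato+. It lay between 1373 and 1760 in CD24+Tomato+ and between 52.6 and 275 in Tomatoneg. In CD24negTomato+ 0 of 5 tested islet markers passed limma (3 with the block). In CD24+Tomato+ 2 of 4 tested were higher, but not Ins1 and Ins2 (limma adjusted p = 0.541 and 0.572). Tuft markers (7 genes) summed to 11346 to 13699 in CD24+Tomato+ against 1207 to 1849 in Tomatoneg, with 6 of 7 higher, and to 332 to 375 in CD24negTomato+ against 1044 to 1694. Enterocyte markers (7 genes) summed to 24517 to 102828 in CD24+Tomato+ against 167141 to 686997 in Tomatoneg, with 4 of 7 lower (7 with the replicate block). In CD24negTomato+ they summed to 208232 to 566272 against 164294 to 641883, and 0 of 7 passed limma, with or without the block. Stem markers (6 genes) summed to 2649 to 4578 in CD24negTomato+ against 10191 to 28028, with 1 of 6 lower (3 with the block). In CD24+Tomato+ they summed to 13417 to 20254 against 11016 to 28791. Acinar markers (8 genes) summed to 552 to 3486 (median 651) in CD24+Tomato+ against 190 to 347, and 0 of 7 tested passed (1 with the block). In CD24negTomato+ they summed to 151 to 463 against 156 to 312. Over all genes tested, 8.02% were higher in CD24+Tomato+ and 0.999% in CD24negTomato+. In CD24+Tomato+ 678 of 13874 genes were lower (1381 with the block), and in CD24negTomato+ 0.32% were. The part of these other cells in the levels of the 9 factors was not tested. In sorted bulk samples, fewer cells of a type and less RNA per cell cannot be told apart.

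One Tomatoneg library differed from its group. Replicate 1 listed 4 of the 9 factors at 0 (Pax4, Nkx2-2, Rfx6 and Etv1), while replicates 2 and 3 listed 0 of them at 0. Across all genes with a mean of at least 20 normalized counts in the other Tomatoneg libraries, replicate 1 listed 6.65% at 0, replicate 2 listed 1.01% and replicate 3 listed 1.49% in the table with CD24negTomato+. Its correlation with replicates 2 and 3 was 0.818 to 0.850 over genes of that table, against 0.924 between replicates 2 and 3. The fold changes of the 9 factors are also given without it.

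In CD24+Tomato+ cells all 9 factors rose against Tomatoneg (limma on log2(normalized count + 1), adjusted p = 0.00152 to 0.0356, over 13874 genes), and for each factor every CD24+Tomato+ library was above every Tomatoneg library. With replicate number as a block 9 of 9 rose as well. Across all genes tested in this comparison 8.02% rose (10.8% with the block) and 21.6% had higher groups without overlap. The median log2 fold change of the 9 factors was 5.27, beside 0.16 over all genes tested. The count of 9 was kept without Tomatoneg replicate 1, when 11.3% of all genes rose. It dropped to 3 without CD24+Tomato+ replicate 1 or replicate 3 and to 2 without replicate 2, as it did over all genes, where 137 to 661 calls were left of 1791. It was 8 without Tomatoneg replicate 2 or replicate 3.

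In CD24negTomato+ cells the picture was mixed. The levels of 8 factors were on average above Tomatoneg and that of Neurog3 was below, but 0 of 9 passed limma's threshold over 13420 genes. At an unadjusted p under 0.05 there were 6 of 9, beside 17.1% of all genes tested. With replicate number as a block, 3 of 9 rose (Neurod1, Insm1 and Etv1), beside 4.34% of all genes, and without the block 0.999% of all genes rose and 0.32% fell. The groups did not overlap for 6 factors that were higher (14.7% of all genes) and for Neurog3, which was lower (10.6% of all genes). The median log2 fold change of the 9 factors was 3.11, beside 0.08 over all genes tested. Without Tomatoneg replicate 1, 3 of 9 rose, beside 3.99% of all genes. All 9 factors had a mean above the minimum of 10 normalized counts in both tables.

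**Figure D1:**
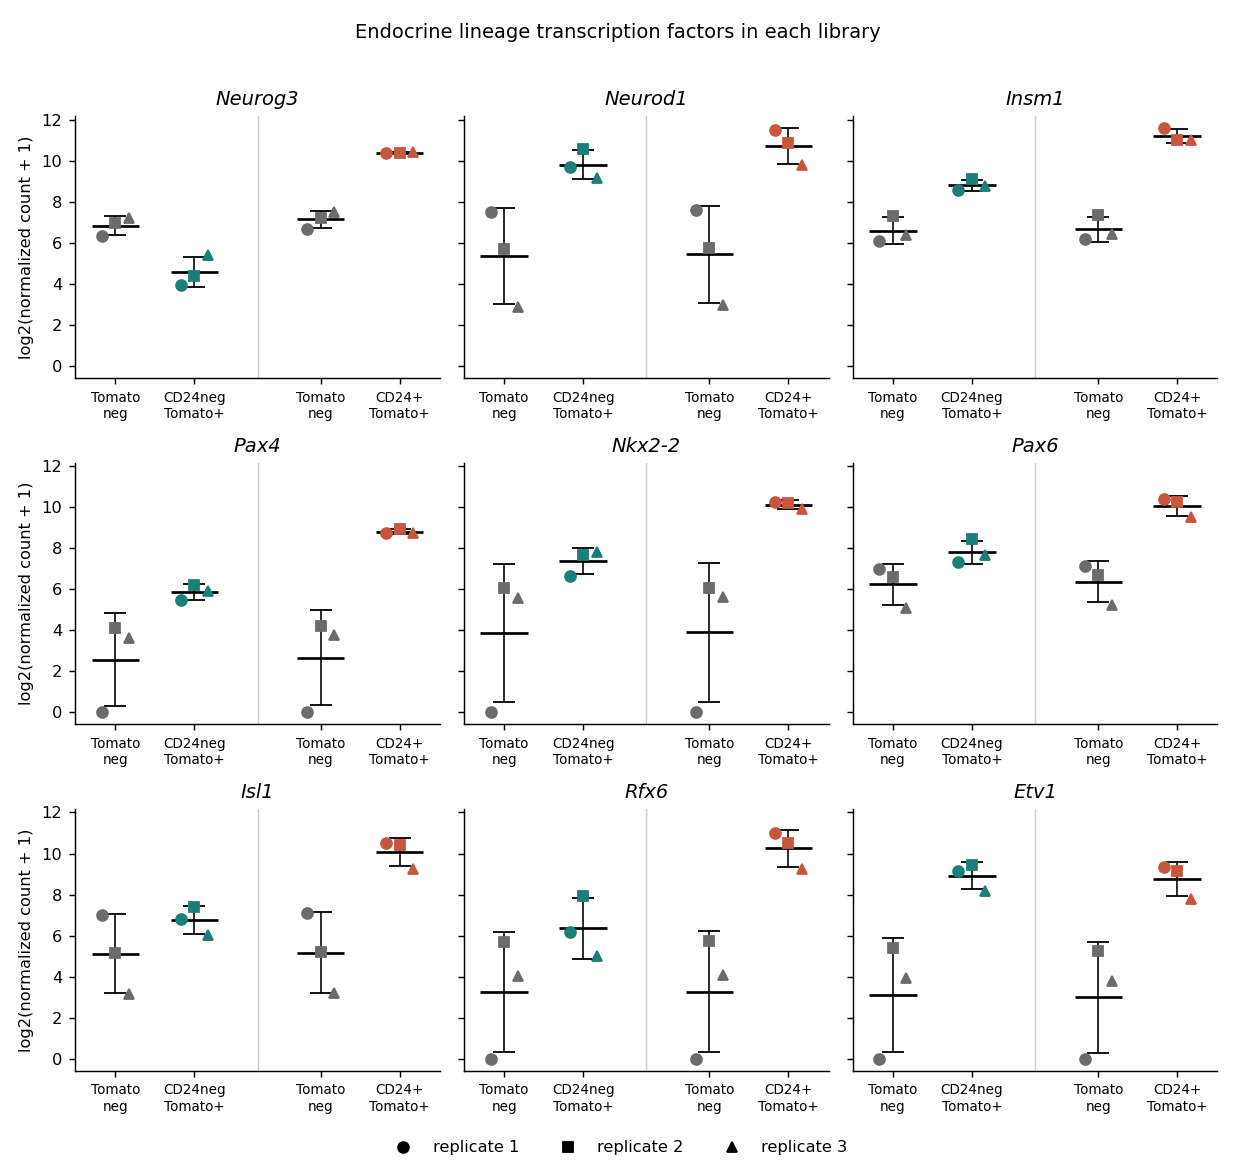
Level of each factor in each library, as log2(normalized count + 1). In each panel the table with CD24negTomato+ (green) is on the left and the table with CD24+Tomato+ (red) on the right, each with the Tomatoneg libraries (grey) as normalized in that table; symbols give the replicate number, the horizontal line the mean and the bar the SD of 3 libraries. Neurog3 is the only panel in which the CD24negTomato+ libraries lie below all Tomatoneg libraries, and Tomatoneg replicate 1 lies at 0 for Pax4, Nkx2-2, Rfx6 and Etv1.

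**Figure D2:**
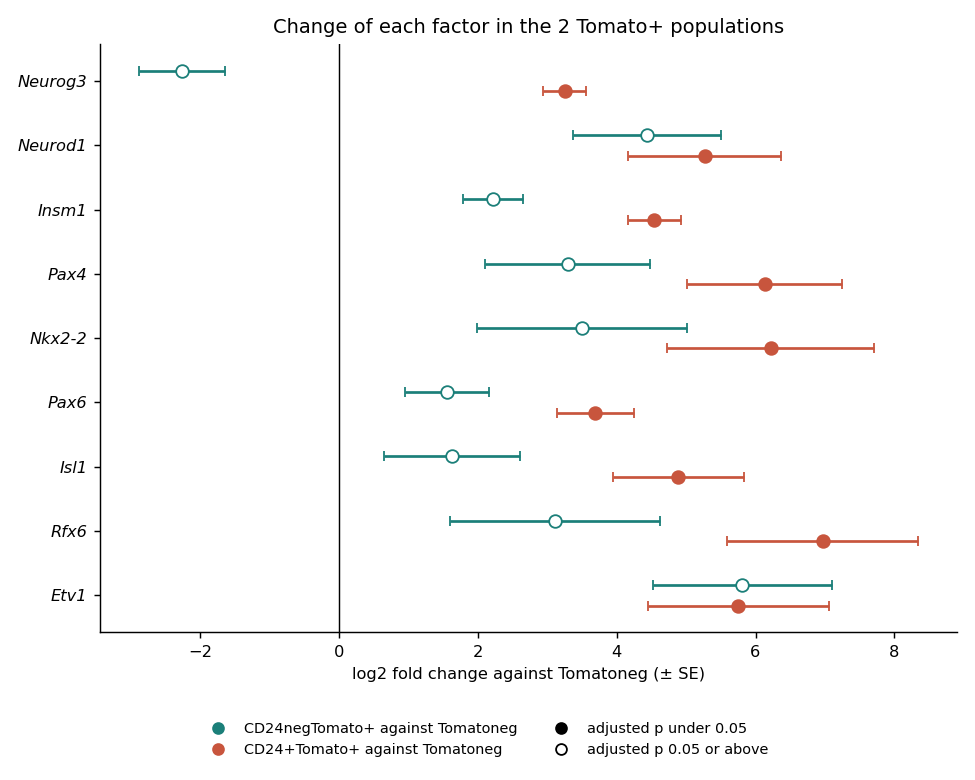
Log2 fold change of each factor against Tomatoneg with its SE from limma, for CD24negTomato+ (green) and CD24+Tomato+ (red); filled points had an adjusted p under 0.05. The red points lie between 3.25 and 6.97 and are all filled, while the green points lie between -2.26 and 5.81 and are all open.

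Neurog3 (chr10:62133090-62134763), the progenitor factor, had the lowest mean level of the 9 per kb of exons in CD24negTomato+ libraries. In CD24+Tomato+ libraries its mean was the highest and its level the most even, but its range lay within those of Insm1 and Neurod1. In CD24negTomato+ it was at 14.6, 19.6 and 41.2 normalized counts in replicates 1, 2 and 3, or about 15 to 45 reads. In Tomatoneg of the same table it was at 80.2, 123 and 147. Every CD24negTomato+ library was below every Tomatoneg library, and the Tomatoneg mean was 4.64-fold higher. The log2 fold change of -2.26 (SE 0.62) did not pass the test (limma adjusted p = 0.126), nor with the replicate block (adjusted p = 0.0673). In 13 alternatives it stayed negative, from -2.93 to -1.89, with an adjusted p of 0.0523 to 0.442.

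In CD24+Tomato+, Neurog3 was at 1319, 1345 and 1364 normalized counts, and in Tomatoneg of that table at 102, 149 and 182. All CD24+Tomato+ libraries were high and far from the Tomatoneg libraries. The mean was 9.31-fold that of Tomatoneg and the log2 fold change 3.25 (SE 0.31, limma adjusted p = 0.00231). It passed in all 13 alternatives. The coefficient of variation over the 3 CD24+Tomato+ libraries was 1.70%, the lowest of the 9 factors, for which it reached 53.0% in Neurod1. Counting alone would give 2.46% at an estimated 1401 to 1919 reads, but such read numbers are rough for Neurog3. For the same Tomatoneg libraries they came to 60 to 136 in one table and 71 to 161 in the other. The same Tomatoneg libraries had different values in the 2 tables. Relative to the median gene, Neurog3 was scaled 1.18-fold higher in the table with CD24+Tomato+, while 6 of the 8 other factors were within 5% and Pax4 (1.07-fold) and Etv1 (0.862-fold) were not.

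Neurod1 (chr2:79452521-79456751), a bHLH factor directly downstream of Neurog3 that promotes exit from the cell cycle and hormone gene expression, was high in both Tomato+ populations. In CD24negTomato+ it was at 814, 1521 and 569 normalized counts in replicates 1, 2 and 3, and in Tomatoneg of the same table at 181, 51.0 and 6.42. The groups did not overlap, although Tomatoneg itself spanned a wide range with replicate 1 the highest. The log2 fold change was 4.43 (SE 1.07, limma adjusted p = 0.0926, or 0.0309 with the replicate block). The CD24+Tomato+ libraries were at 2844, 1864 and 874, against 195, 52.2 and 6.74 in Tomatoneg, with replicate 3 the lowest of both groups. It rose by 5.27 (SE 1.10, limma adjusted p = 0.0236), and the mean was 22.0-fold that of Tomatoneg.

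Insm1 (chr2:146221921-146225020), a zinc finger repressor that acts in endocrine differentiation, had the most even levels of the 9 factors in CD24negTomato+, with a coefficient of variation of 19.5%. It was at 379, 550 and 427 normalized counts in CD24negTomato+ and at 66.9, 158 and 81.4 in Tomatoneg. The groups were well apart, and the log2 fold change of 2.22 (SE 0.43) was the closest of the 9 to the threshold (limma adjusted p = 0.0577, or 0.0224 with the replicate block). In CD24+Tomato+ it was at 3077, 2036 and 2075, against 72.1, 162 and 85.4 in Tomatoneg. It rose by 4.54 (SE 0.38, limma adjusted p = 0.00152), which was the smallest p of the 9 factors, and passed in all 13 alternatives.

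Pax4 (chr6:28442334-28449353), a paired-homeodomain repressor that acts early in the specification of some endocrine cell types, was at 43.5, 73.5 and 59.5 normalized counts in CD24negTomato+ and at 0, 16.3 and 11.3 in Tomatoneg, where replicate 1 was the library at 0. The groups did not overlap, but the log2 fold change of 3.29 (SE 1.19) did not pass (limma adjusted p = 0.220, or 0.106 with the block). The CD24+Tomato+ libraries were at 421, 493 and 424, against 0, 17.8 and 12.7 in Tomatoneg. The 3 high libraries differed little, with a coefficient of variation of 9.21%. Pax4 rose by 6.13 (SE 1.12, limma adjusted p = 0.0161), and the mean was 43.9-fold that of Tomatoneg. Without the library at 0 the log2 fold change was 4.80, and 2.01 in CD24negTomato+.

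Nkx2-2 (chr2:147177546-147194243), a homeodomain factor that acts in islet and intestinal endocrine differentiation, was at 99.7, 202 and 223 normalized counts in CD24negTomato+ and at 0, 65.3 and 46.5 in Tomatoneg. Every CD24negTomato+ library was the higher, with a log2 fold change of 3.50 (SE 1.52) that did not pass (limma adjusted p = 0.296, or 0.102 with the block). In CD24+Tomato+ it was at 1224, 1187 and 947, against 0, 66.2 and 48.4 in Tomatoneg. It rose by 6.22 (SE 1.49, limma adjusted p = 0.0356), the largest adjusted p of the 9 in this comparison. Its fold change rested in part on the library at 0, since pairs 2 and 3 differed by 4.14 and 4.26 and pair 1 by 10.26 on the log2 scale. Without that library it was 4.27, and 1.56 in CD24negTomato+. The antisense gene Nkx2-2os was not analysed here, and whether reads were assigned by strand is not given in the sources used here. The same holds for Pax6 and its antisense partner Pax6os1.

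Pax6 (chr2:105668900-105697364), a paired-homeodomain factor that activates glucagon and other hormone genes, was at 157, 342 and 201 normalized counts in CD24negTomato+ and at 126, 97.1 and 33.5 in Tomatoneg. The groups came close without overlapping, and the log2 fold change of 1.56 (SE 0.60) was the smallest of the 8 positive values (limma adjusted p = 0.249, or 0.124 with the block). Pax6 was at 1350, 1233 and 725 in CD24+Tomato+, against 141, 104 and 36.7 in Tomatoneg. It rose by 3.69 (SE 0.55, limma adjusted p = 0.00945), with all 3 pairs between 3.25 and 4.27.

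Isl1 (chr13:116298281-116309689), a LIM-homeodomain factor of mature endocrine cells, was at 110, 168 and 65.5 normalized counts in CD24negTomato+ and at 129, 34.8 and 7.97 in Tomatoneg. These groups overlapped, as Tomatoneg replicate 1 was above CD24negTomato+ replicates 1 and 3. The log2 fold change of 1.63 (SE 0.98) did not pass (limma adjusted p = 0.429, or 0.214 with the block). In CD24+Tomato+ it was at 1439, 1385 and 615, against 139, 35.4 and 8.32 in Tomatoneg. Isl1 rose by 4.89 (SE 0.94, limma adjusted p = 0.0189), without overlap.

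Rfx6 (chr10:51677756-51730432), a winged-helix factor required for several islet and gut endocrine cell types, was the most variable factor in CD24negTomato+. It was at 71.1, 243 and 30.8 normalized counts, a coefficient of variation of 98.0%, and at 0, 51.5 and 15.4 in Tomatoneg. CD24negTomato+ replicate 3 was below Tomatoneg replicate 2, so the groups overlapped, and the log2 fold change of 3.11 (SE 1.51) did not pass (limma adjusted p = 0.340, or 0.144 with the block). In CD24+Tomato+ it was at 2029, 1453 and 613, against 0, 52.5 and 16.1 in Tomatoneg. The rise of 6.97 (SE 1.38, limma adjusted p = 0.0203) was the highest fitted value of the 9 with all libraries, and the mean was 59.6-fold that of Tomatoneg. Without Tomatoneg replicate 1 it was 5.33, below the 6.36 of Neurod1 and the 5.86 of Isl1, and it was 1.49 in CD24negTomato+.

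Etv1 (chr12:38779380-38870484), an ETS-family factor, was the factor for which the fold changes of the 2 Tomato+ populations were closest. In CD24negTomato+ it was at 569, 684 and 290 normalized counts, and at 0, 41.7 and 14.1 in Tomatoneg. The groups were far apart, with a log2 fold change of 5.81 (SE 1.29, limma adjusted p = 0.0775, or 0.0376 with the replicate block). The CD24+Tomato+ values of 645, 560 and 223 stood against 0, 36.8 and 12.8 in Tomatoneg. It rose by 5.75 (SE 1.30, limma adjusted p = 0.0301). The ratio of the mean to that of Tomatoneg was 27.7 and 28.8 in CD24negTomato+ and CD24+Tomato+. Without the Tomatoneg library at 0 the log2 fold change was 4.25 in both, and the limma adjusted p was 0.0173 in CD24negTomato+ and 0.00855 in CD24+Tomato+.

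The 2 comparisons share their Tomatoneg libraries, and the tables were normalized separately, so the Tomato+ populations were set side by side and not tested against each other. The log2 fold changes in CD24negTomato+ and CD24+Tomato+ were -2.26 and 3.25 for Neurog3, 4.43 and 5.27 for Neurod1, and 2.22 and 4.54 for Insm1. For Pax4 they were 3.29 and 6.13, for Nkx2-2 3.50 and 6.22, for Pax6 1.56 and 3.69, and for Isl1 1.63 and 4.89. For Rfx6 they were 3.11 and 6.97, and for Etv1 5.81 and 5.75. The value was thus smaller in CD24negTomato+ for 8 of the 9, with Etv1 the exception at a difference well inside its SE.

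Without Tomatoneg replicate 1 the factors listed there at 0 had lower fold changes, and Neurod1, Pax6 and Isl1, which were highest there among Tomatoneg libraries, had higher ones. In CD24negTomato+ and CD24+Tomato+ they then were 5.50 and 6.36 for Neurod1, 1.93 and 4.08 for Pax6, and 2.59 and 5.86 for Isl1. For Neurog3 they were -2.51 and 3.02, and for Insm1 1.96 and 4.31. In CD24negTomato+ the limma adjusted p was then 0.0226 for Neurod1, 0.0379 for Insm1 and 0.0523 for Neurog3.

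Within a library, the ratio of a factor to an EEC gene does not depend on the depth of that library where both counts are well above 0. Chga served as the reference for EEC content, and the ratio is given as log2 of (factor + 1) over (Chga + 1). Pax4, Nkx2-2, Rfx6 and Etv1 were at 0 in Tomatoneg replicate 1. Their ratio there was set by Chga and the added 1 alone, and does depend on scaling. For Neurog3 it averaged -9.24 ± 0.70 (SD, n = 3) in CD24negTomato+ and -3.17 ± 0.90 in Tomatoneg of the same table, and the groups were widely apart. It was -4.70 ± 0.51 in CD24+Tomato+ and -2.94 ± 0.91 in Tomatoneg of the other table, again without overlap. Neurog3 was thus lower relative to Chga in both Tomato+ populations, including CD24+Tomato+, where its level itself rose.

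Pax6 was also lower relative to Chga in both: -6.02 ± 0.21 in CD24negTomato+ against -3.77 ± 0.49, and -5.03 ± 0.17 in CD24+Tomato+ against -3.71 ± 0.49. In CD24negTomato+ the ratios of Insm1 (-5.01 ± 0.27 against -3.42 ± 0.75) and Isl1 (-7.06 ± 0.71 against -4.89 ± 1.47) did not overlap with Tomatoneg either. In all, 4 of 9 ratios in CD24negTomato+ and 2 of 9 in CD24+Tomato+ were without overlap, all lower. Chga itself rose, and over all genes tested 84.8% and 85.3% had a ratio to Chga that was lower without overlap, so a lower ratio was not particular to these factors. With 3 libraries on each side, the smallest p that the exact permutation test (two-sided) allows is 0.1, and the smallest adjusted p was 0.225 and 0.45 in the respective tables.

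**Figure D3:**
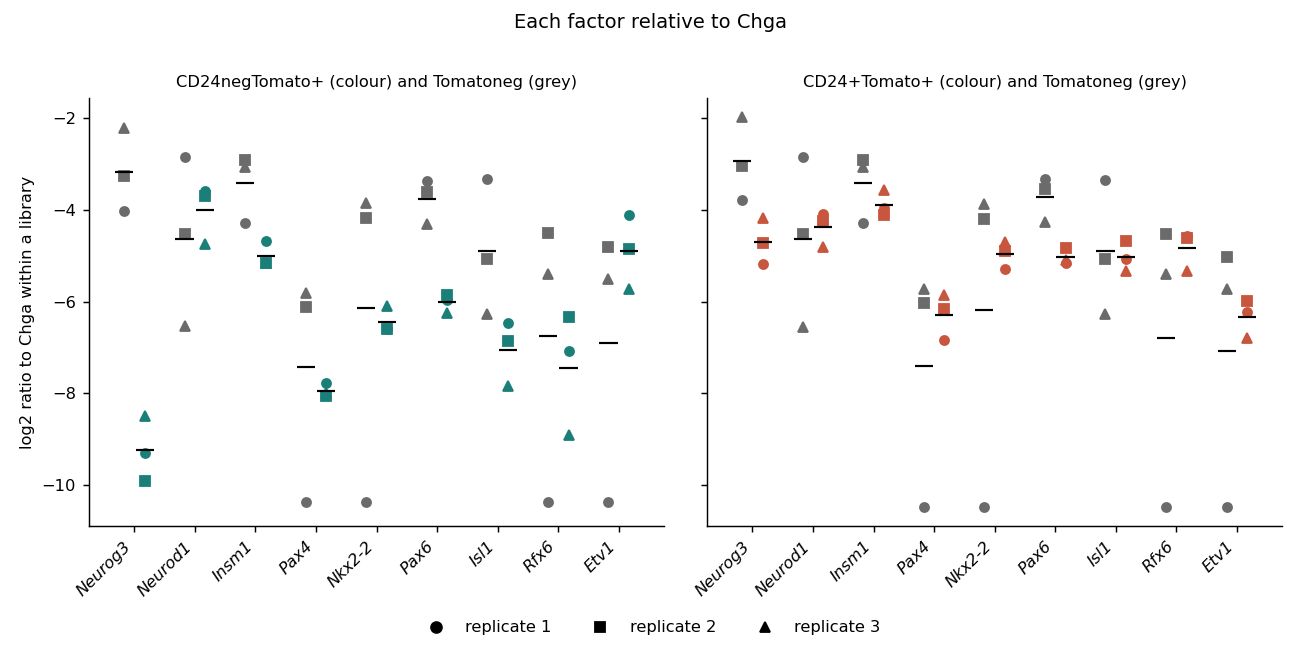
Log2 ratio of each factor to Chga within a library, with 1 added to both normalized counts, for CD24negTomato+ (left, green) and CD24+Tomato+ (right, red) beside Tomatoneg (grey); symbols give the replicate number and lines the mean of 3 libraries. The lowest Tomatoneg points of Pax4, Nkx2-2, Rfx6 and Etv1 are the library listed at 0, and the widest gap is that of Neurog3 on the left, at -9.24 against -3.17.

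Relative to Neurod1 in the same library, Neurog3 was at a log2 ratio of -5.22 ± 1.30 in CD24negTomato+ and 1.47 ± 2.75 in Tomatoneg. In CD24+Tomato+ the ratio was -0.31 ± 0.89, against 1.71 ± 2.75 in Tomatoneg, and these overlapped. Neurod1 was therefore far more abundant than Neurog3 in CD24negTomato+ libraries and near it in CD24+Tomato+ libraries. Isl1 was also low relative to Neurod1 in CD24negTomato+ (-3.05 ± 0.15 against -0.25 ± 0.45), and the ratio of Pax6 lay between -2.37 and -1.50, against -0.52 to 2.22 in Tomatoneg. No overlap was seen for 3 of 8 ratios to Neurod1 in CD24negTomato+ and 0 of 8 in CD24+Tomato+ (smallest adjusted p in exact permutation tests 0.267 and 1.0). Over all genes tested, 82% and 78.7% had a ratio to Neurod1 that was lower without overlap.

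Levels of different factors were compared per kb of annotated exons. In CD24negTomato+ the normalized count per kb was highest for Neurod1 (355 ± 181, SD, n = 3) and Insm1 (146 ± 28.5), whose ranges did not overlap. Next came Nkx2-2 (60.8 ± 22.9), Pax4, Etv1, Isl1, Rfx6 and Pax6, each overlapping with its neighbours, and Neurog3 was the lowest at 15.0 ± 8.45, within the range of Pax6. In CD24+Tomato+ the order began with Neurog3 (802 ± 13.6), Insm1 (773 ± 190) and Neurod1 (682 ± 361), which overlapped. Nkx2-2 (389 ± 52.4), Rfx6, Pax4 and Isl1 (290 ± 116) followed and overlapped with each other, as Nkx2-2 did with Neurod1, and Pax6 (94.3 ± 28.4) and Etv1 (35.8 ± 16.8) were lower, with no overlap between these 2 or with the rest.

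In Tomatoneg, Neurog3 was the highest of the 9 per kb, at 69.8 ± 20.2 in the table with CD24negTomato+, above Insm1 (33.0 ± 15.9) and Neurod1 (29.1 ± 33.2), both of which overlapped with it. In the other table it was at 86.1 ± 24.0, above the range of Insm1 but not of Neurod1. Etv1 was the lowest in both, at 1.40 ± 1.59 and 1.24 ± 1.40. With the mean transcript length in place of the exon union, Neurog3 remained the lowest in CD24negTomato+ and the highest in the others, while 22 of 36 positions moved. The exon union was far longer than the mean transcript for Pax6 (11694 against 1754 bases) and Etv1 (13296 against 2417 bases). By mean transcript, Pax6 in CD24+Tomato+ was at 629 ± 190 and overlapped with Neurod1 (682 ± 361) and Rfx6 (516 ± 269). Etv1 remained the lowest there, but moved from position 5 to 2 in CD24negTomato+.

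The 9 factors followed different patterns over libraries. Over the 6 libraries of a table, Pearson's r of log2(normalized count + 1) between Neurod1, Pax6 and Isl1 was 0.90 to 0.96 with CD24negTomato+ and 0.98 or above with CD24+Tomato+. Between Pax4, Nkx2-2, Rfx6 and Etv1 it was 0.92 to 0.98 and 0.98 or above. Between the 2 sets it was -0.10 to 0.60 and 0.56 to 0.80. Insm1 lay between them. The sets were named after these values were seen, they share the same 6 libraries and the difference between populations, and they part in the Tomatoneg library in which the first set was at its highest among Tomatoneg libraries and the second was listed at 0. Neurog3 had a negative r with each of the 8 others in the table with CD24negTomato+ (-0.90 to -0.43) and a positive r in the other (0.80 to 0.98).

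**Figure D4:**
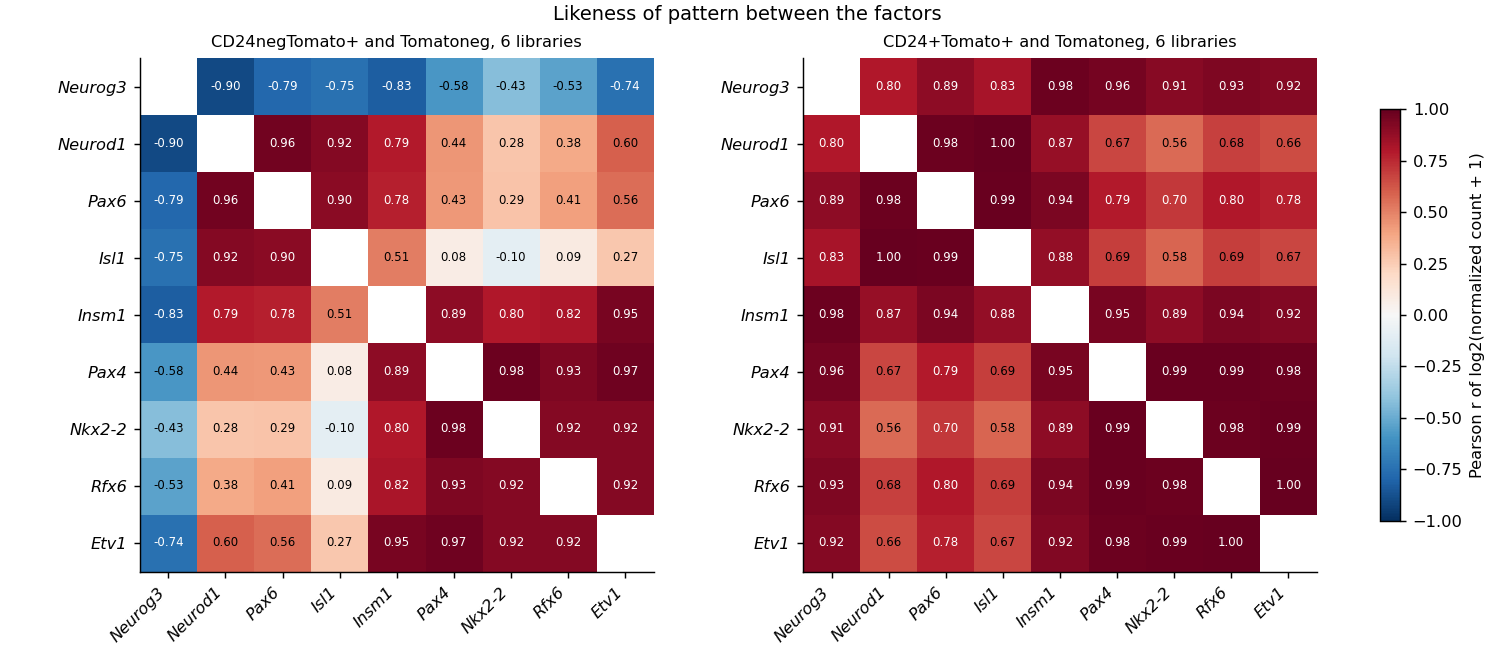
Pearson's r of log2(normalized count + 1) between factors over 3 CD24negTomato+ and 3 Tomatoneg libraries (left) and over 3 CD24+Tomato+ and the same 3 Tomatoneg libraries (right); the colour scale runs from -1 (blue) to 1 (red). The Neurog3 row is negative on the left and positive on the right, and Neurod1, Pax6 and Isl1 form one block and Pax4, Nkx2-2, Rfx6 and Etv1 another.

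Likeness was taken as the smaller of the r values of the 2 tables, over 13238 genes tested in both. The genes most like Neurog3 were Igsf8 (0.98), Smtn (0.97), Uhrf1bp1 (0.96), Cnn3 (0.96) and Ldb1 (0.95). Those most like Neurod1 were Rab37 (0.99), Tph1 (0.99), which encodes the serotonin-synthesizing enzyme of enterochromaffin cells, Sez6l2 (0.99), Adcy2 (0.99) and Dock9 (0.98). Pax6 ranked 26 and Isl1 ranked 135 in likeness to Neurod1.

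Among the 5 genes most like Pax4 were Cryba2 (0.997), Fxyd6 (0.997), Hap1 (0.99) and Rtn2 (0.99), and Nkx2-2 ranked 38 and Etv1 ranked 90 for it. Isl1 was most like Pwwp3b (0.98), Dlg4 (0.98), Maml3 (0.97), Lrp11 (0.97) and Nr4a2 (0.97). Each r rests on 6 libraries in 2 groups.

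A further 34 transcription factors known from enteroendocrine or islet development were looked up. In CD24+Tomato+, 28 of them were tested and 18 rose (8.02% of all genes), while 0 fell and 10 did not pass the test. The median log2 fold change was 2.39, beside 0.16 over all genes tested. With the replicate block 19 rose (10.8% of all genes) and 2 fell (1381 of 13874 genes). In CD24negTomato+, 27 were tested, 2 rose (0.999% of all genes) and 0 fell (0.32%). The median there was 1.72, beside 0.08 over all genes tested, and 12 rose with the block (4.34% of all genes). Among the factors that failed the filter in both tables were Mafa, Nkx6-2, Egr4 and Pou3f4. Nkx6-1 failed it in the table with CD24+Tomato+, and Lmx1b and Hhex failed it in the table with CD24negTomato+.

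The 2 that rose in CD24negTomato+ were Atoh1, the bHLH factor of secretory progenitors upstream of Neurog3, and Onecut3. Atoh1 was at 2789, 2714 and 1668 normalized counts in CD24negTomato+ and at 540, 569 and 437 in Tomatoneg (log2 fold change 2.18, limma adjusted p = 0.0164). It rose by 2.34 in CD24+Tomato+ (limma adjusted p = 0.00187), where it was at 2998, 2546 and 2648. Unlike Neurog3, it was above every Tomatoneg library in both populations; Atoh1 is also active in goblet and Paneth cells, whose marker sums are given above. Onecut3 was at 594, 583 and 315 in CD24negTomato+ and at 0, 14.1 and 8.60 in Tomatoneg (log2 fold change 6.51, limma adjusted p = 0.0349). It also rose in CD24+Tomato+, by 5.33 (limma adjusted p = 0.0273). Without Tomatoneg replicate 1 the values were 5.31 and 4.12.

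With all libraries, the highest fitted values among those that rose in CD24+Tomato+ were those of Lmx1a, Lmx1b, Runx1t1, St18, Glis3 and Hhex. Lmx1a, a LIM-homeodomain factor of serotonin-producing enterochromaffin cells, was at 1188, 727 and 403 normalized counts, against 0, 38.7 and 5.60 in Tomatoneg, and rose by 6.78 (limma adjusted p = 0.0173). Lmx1b was at 99.9, 84.4 and 73.1 and listed at 0 in all Tomatoneg libraries, so it was at least 23.4-fold higher when 3 reads per library are taken as the limit. Runx1t1 rose by 6.41, St18 by 6.34, Glis3 by 6.27 and Hhex, a homeodomain factor of somatostatin cells, by 6.20 (limma adjusted p = 0.00940, 0.0321, 0.0191 and 0.0101). For all 6, Tomatoneg replicate 1 was listed at 0, as for 4 of the 9 factors above. Without that library the values of Lmx1a, Runx1t1, St18, Glis3 and Hhex lay between 5.04 and 5.78 and passed the test.

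**Figure D5:**
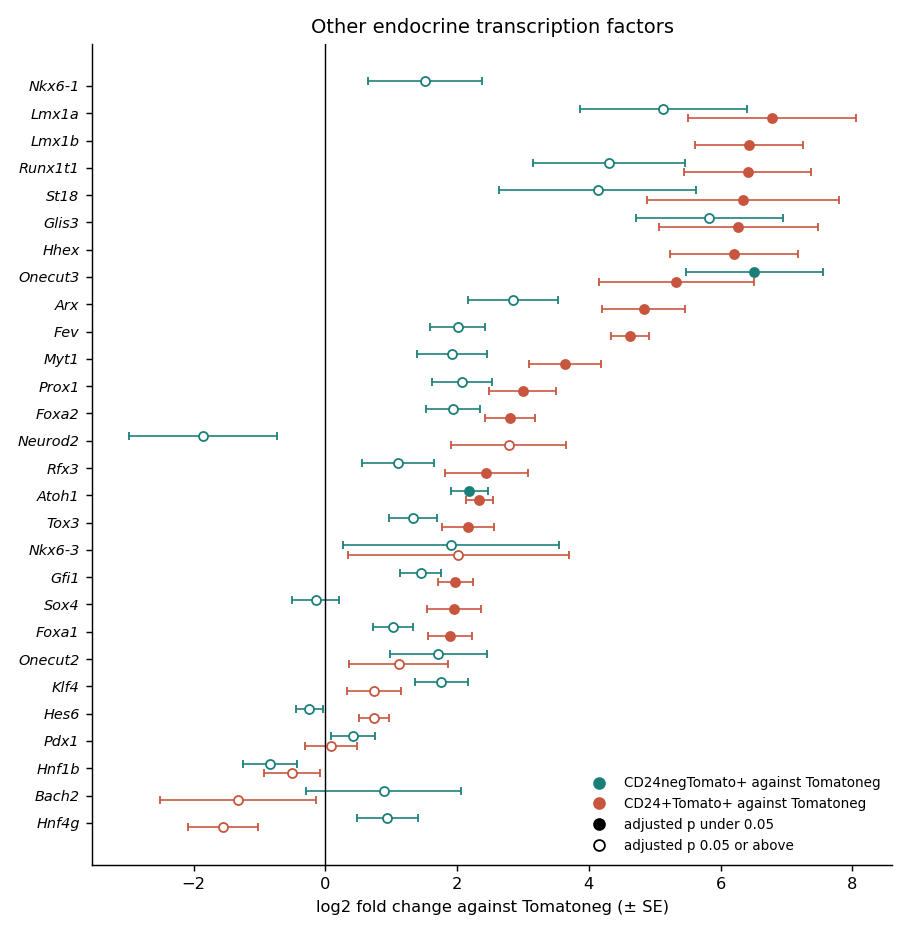
Log2 fold change against Tomatoneg with its SE from limma for other endocrine transcription factors that passed the filter, ordered by the value in CD24+Tomato+ (red; CD24negTomato+ in green); filled points had an adjusted p under 0.05. There are 18 filled red points, all to the right of 0, and 2 filled green points, Atoh1 and Onecut3.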

How the data were processed

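Epithelial cells were sorted after attached pancreas had been removed, and poly-A libraries were sequenced on a NovaSeq. Per the labels and methods, the submitters used bcl2fastq 2.19, kallisto 0.44.0 with GRCm38, sleuth and DESeq2. The authors deposited 2 tables of normalized counts, treated here as a signal that is never negative: 46.4% to 67.0% of low values were whole reads (tolerance 0.05 reads), and the factor between the tables for a shared library differed by gene, so reads were not recovered and no count test was run. Each table was fitted separately with limma 3.58.1 (R 4.3.3, trend) on log2-transformed values (pseudocount 1), two-sided, leaving out genes whose mean over 6 libraries was under 10, with Benjamini-Hochberg adjustment over all genes tested and a threshold of 0.05. Fold changes of low genes depend on the pseudocount, and where a Tomatoneg library was at 0 they can exceed the ratio of means. The fit was also run on simulated counts. These had the same dispersion for all genes and no deviant library such as Tomatoneg replicate 1, so they do not cover that case. Named genes were the 9 factors, the 6 highest called of the other factors per comparison, and the 5 most alike of Neurog3, Neurod1, Pax4 and Isl1. Factors and lists were chosen with earlier results of these data known. Replicates are labelled biological. The numbers in the labels paired the libraries, as deviations from group means correlated at 0.18 to 0.38 in all 6 same-numbered pairs. Per the labels, whether a number marks one animal or sort day was not given. Results for a few genes of these lists are not reported here. Limits of 3 reads cover counting error only.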

Additional observations from a re-analysis of the deposited data

Results flagged for a closer look

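Neurog3 was flagged because its direction differed between the Tomato+ populations. Its log2 fold change against Tomatoneg was -2.26 in CD24negTomato+ and 3.25 in CD24+Tomato+, and it was lower in all 3 same-numbered pairs of the first comparison and higher in all 3 of the second. The difference itself was not tested, since the tables were normalized separately and share the Tomatoneg libraries. Cd24a, which encodes the antigen used to sort the populations, showed the same pattern, at -1.37 and 2.78, and its difference was not tested either.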

How the results depend on the processing

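No log2 fold change of the 9 factors changed sign under any of the alternatives run (other pseudocounts, filters, scalings, the replicate block and each library left out). In CD24negTomato+, 3 factors passed with a pseudocount of 10 and with the replicate block, 2 with quantile normalization, and 0 to 3 with a library left out; of the other endocrine factors, 1 passed with a pseudocount of 0.1, 6 with 10, 12 with the block, 7 with quantile normalization, and 0 to 10 with a library left out. Genes passing in all were 177, but 112 with a pseudocount of 0.1, 415 with 10, 979 with the block, 494 with quantile normalization, and 9 to 916 with a library left out, the highest without Tomatoneg replicate 1. In CD24+Tomato+, 5 factors passed with a pseudocount of 0.1 and 2 to 9 with a library left out; Neurog3 and Insm1 passed in every alternative. Of the other endocrine factors 2 to 19 passed with a library left out. Genes passing were 1791, but 2885 with the block and 137 to 2393 with a library left out. The cause of these shifts was not tested. The paired fit with the replicate block changed no call of the 9 factors other than those of Neurod1, Insm1 and Etv1 in CD24negTomato+. Of the calls in CD24negTomato+, 75.7% were higher, but 62.0% with equal library totals and 61.5% with quantile normalization; in CD24+Tomato+ these were 62.1%, 62.4% and 48.9%. Equal totals moved the median log2 fold change of all genes from 0.08 to -0.12 in CD24negTomato+, and quantile normalization moved it to -0.05 there and from 0.16 to -0.02 in CD24+Tomato+, shifts smaller than the change of any of the 9 factors. With a minimum mean of 50, Pax4 was not tested in CD24negTomato+. Of 34 ratios, 18 changed sign under at least 1 alternative. Values under 2.10 to 4.29 normalized counts, or 3 reads, cannot be told from 0.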
